A study of Mus musculus with 6 samples.

Results

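Proliferation and DNA replication genes were followed in resting naive CD8 T cells from mice with and without LAIR-1. The group holds 42 genes that dividing cells need, chosen by symbol, and all 42 had a row among the 14515 genes of the count table. Of these, 33 had enough counts to be tested between the genotypes, and 9 stayed below the count filter. By role, 11 genes license and drive the replication fork, 5 make nucleotides for DNA and 5 control the step from G1 into S phase. Another 18 were grouped as mitotic, with the cyclin A2 gene Ccna2 among them. The last 3 encode a chromatin protein, a regulator of microtubules and a tubulin, which resting cells also make.

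The libraries came from spleens of 3 wild type mice, labelled Lair1+/+, and 3 LAIR-1-deficient mice, labelled Lair1-/-, with 1 library of total RNA per mouse. Strain, age, sex, the part of Lair1 that the allele removes and its cell type are not given in the labels used here. Cells were sorted as CD45+CD3+CD8+ and CD44-, and no group was stimulated or treated, so no library of cycling cells serves as a reference. Library totals ranged from 5519748 to 9187017 counts, with every LAIR-1-deficient library shallower than every wild type library, and 1 count was worth 0.109 to 0.178 CPM. The targeted gene Lair1 had 58, 32 and 43 counts in Lair1+/+ mice 1 to 3, against 2, 1 and 1 in the Lair1-/- mice. In both mouse 1 libraries all 12 tested immediate early genes, which antigen receptor signals and handling induce, lay above the 4 other libraries. The 9 listed markers of CD8 T cells include genes of the proteins used in the sort. All 9 were detected and tested, with a summed level of 7514 to 8121 CPM.

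In a dividing cell, licensing factors load the MCM helicase ring onto DNA in G1, cyclin E and CDK2 start S phase, and PCNA clamps the polymerases to the fork. Cyclin B with CDK1 then drives mitosis, and the anaphase-promoting complex ends it by degrading cyclins. In resting cells the DREAM complex, built from an E2F factor, an RB-like pocket protein and the MuvB core, holds many of these genes down. It is known to reach replication genes through E2F sites and mitotic genes through an element named CHR, while NF-Y binds CCAAT boxes near many of the mitotic ones. Naive CD8 T cells are a textbook example of quiescent cells that enter the cycle after antigen.

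Promoter windows are shown because the replication and mitotic genes differ in these letters. Whether the letters bear on level or on spread between libraries was not tested. RefSeq windows on GRCm38.p6, 250 bases before to 50 after the start, were found for 36 members. Aurkb, Ccna2, Ccne2, Gins2, Mcm4 and Stmn1 had none. Both strands were searched for an E2F core (TTCCCGC or TTGGCGC or TTCGCGC or TTGCCGC), for CCAAT and for the CHR letters TTTGAA, and the E2F core can share letters with CCAAT. Top2a, Ube2c and Mki67 stand for the mitotic genes whose spread between libraries was more than 2 times that of counting. Mcm5 and Mcm6 are the helicase subunits with the smallest p between genotypes, and Pcna was the replication gene with the most counts. Each window runs 5′ to 3′ on the gene's strand, and capitals mark any of the 3 motifs.
Top2a, chr11:99024140-99024439, minus strand: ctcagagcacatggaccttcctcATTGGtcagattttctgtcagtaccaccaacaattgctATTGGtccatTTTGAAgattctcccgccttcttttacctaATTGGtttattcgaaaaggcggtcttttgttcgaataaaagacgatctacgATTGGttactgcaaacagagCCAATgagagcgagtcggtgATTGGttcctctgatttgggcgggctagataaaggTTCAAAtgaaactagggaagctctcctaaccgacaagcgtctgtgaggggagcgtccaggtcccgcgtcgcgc
Ube2c, chr2:164769679-164769978, plus strand: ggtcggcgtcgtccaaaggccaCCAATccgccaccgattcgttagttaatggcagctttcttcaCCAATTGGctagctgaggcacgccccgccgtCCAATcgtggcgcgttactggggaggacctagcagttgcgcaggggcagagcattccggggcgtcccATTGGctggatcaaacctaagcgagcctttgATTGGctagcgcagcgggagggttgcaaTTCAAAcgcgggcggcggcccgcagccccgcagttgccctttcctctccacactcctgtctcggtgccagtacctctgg
Mki67, chr7:135716330-135716629, minus strand: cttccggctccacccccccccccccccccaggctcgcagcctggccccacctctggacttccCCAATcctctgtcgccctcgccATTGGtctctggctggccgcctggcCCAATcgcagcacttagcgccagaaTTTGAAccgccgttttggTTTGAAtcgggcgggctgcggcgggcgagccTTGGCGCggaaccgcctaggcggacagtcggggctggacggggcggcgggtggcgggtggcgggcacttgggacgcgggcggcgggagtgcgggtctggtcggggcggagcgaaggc
Mcm5, chr8:75109259-75109558, plus strand: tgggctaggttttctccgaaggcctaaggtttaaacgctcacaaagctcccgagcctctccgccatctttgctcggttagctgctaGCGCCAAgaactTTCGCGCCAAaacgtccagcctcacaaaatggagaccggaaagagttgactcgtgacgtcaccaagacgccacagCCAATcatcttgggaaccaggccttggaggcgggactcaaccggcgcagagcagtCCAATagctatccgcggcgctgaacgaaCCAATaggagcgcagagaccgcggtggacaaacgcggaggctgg
Mcm6, chr1:128359656-128359955, minus strand: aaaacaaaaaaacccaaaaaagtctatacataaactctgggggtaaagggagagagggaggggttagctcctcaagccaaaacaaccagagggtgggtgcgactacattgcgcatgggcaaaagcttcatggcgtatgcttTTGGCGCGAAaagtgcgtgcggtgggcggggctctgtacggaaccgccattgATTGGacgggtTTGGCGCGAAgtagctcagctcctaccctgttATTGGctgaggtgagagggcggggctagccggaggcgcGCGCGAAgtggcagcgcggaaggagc
Pcna, chr2:132253131-132253430, minus strand: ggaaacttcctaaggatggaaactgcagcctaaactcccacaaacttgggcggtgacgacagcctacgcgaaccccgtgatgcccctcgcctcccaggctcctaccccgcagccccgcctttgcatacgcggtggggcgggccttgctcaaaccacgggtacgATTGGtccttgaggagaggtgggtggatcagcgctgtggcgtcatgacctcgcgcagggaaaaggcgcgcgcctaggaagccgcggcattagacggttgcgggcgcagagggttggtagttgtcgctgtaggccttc

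The E2F core was in 9 of 15 windows of replication and nucleotide genes (60.0%) and in 3 of 16 mitotic windows (18.8%), against 3145 of all 32851 windows (9.57%). Windows rather than genes were counted, and Mcm7 entered with windows of separate starts, each holding the E2F core. CHR letters showed the opposite split, with 12 of 16 mitotic windows (75.0%), 2 of 15 replication and nucleotide windows (13.3%) and 17.9% of all windows. CCAAT was in 14 of 16 mitotic windows (87.5%) and 10 of 15 replication and nucleotide windows (66.7%), against 37.4% of all. Among the windows printed, Mcm5 and Mcm6 hold the E2F core, and Top2a, Ube2c and Mki67 hold CHR letters. Mitotic genes with a smaller spread also held CHR letters, such as Cenpa, Smc2, Plk1 and Cdc20, while Birc5 and Nusap1 held none. Of the printed windows, that of Mki67 holds both the E2F core and CHR letters, and that of Pcna holds neither. These are matches of letters and no binding was measured.

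**Figure D1:**
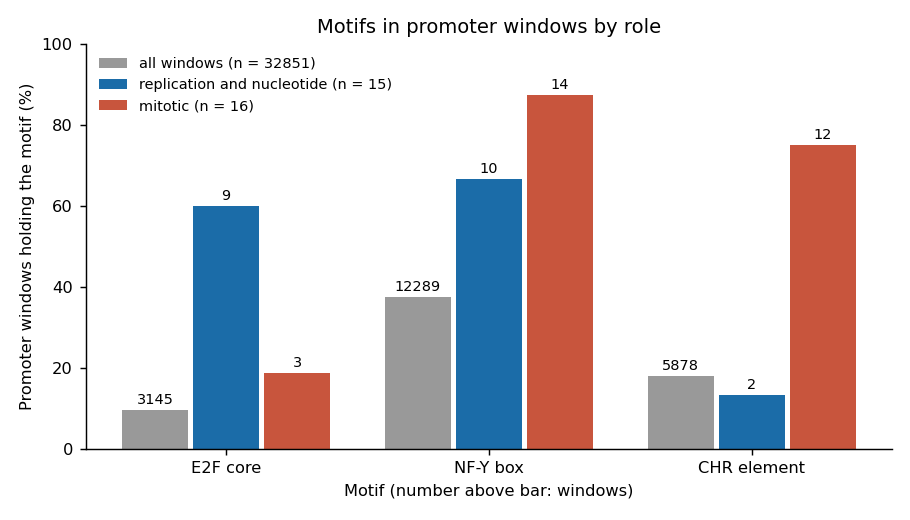
Share of promoter windows (y axis, percent) that hold each of 3 motifs (x axis; the NF-Y box is the CCAAT search) among all 32851 windows, 15 windows of replication and nucleotide members and 16 windows of mitotic members. The number above each bar counts the windows; the E2F core was in 60.0% of replication and nucleotide windows and the CHR element in 75.0% of mitotic windows.

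Between the genotypes, none of the 33 tested members passed the test. In edgeR's quasi-likelihood test, 0 members were called higher and 0 lower at an adjusted p under 0.05. Of the 9565 genes tested 0.0105% were called, which was 1 gene, the targeted Lair1 (adjusted p 0.00256 in this test). DESeq2 and limma-voom also called 0 members. An unadjusted p under 0.05 was reached by 2 members (6.06%), Top2a and Hmgb2, against 3.25% of all genes. Of the tested members, 14 leaned higher and 19 lower, and their median log2 fold change was -0.03, where all genes tested had a median of 0.0006. The groups did not overlap for 3 members (9.09%), Mcm6, Cdk1 and Hmgb2, each lower in the Lair1-/- libraries. Over all genes 4.09% lay apart in that direction and 4.30% in the other. The median was -0.01 over the 13 tested replication and nucleotide genes and -0.11 over the 13 tested mitotic genes. The latter was 0.04 without Lair1+/+ mouse 2 and 0.14 without Lair1-/- mouse 1, so its direction rests on single libraries.

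The precision differed with the level. For 21 of the 33 members, the whole 95% interval of the fold change fell inside 2-fold up and 2-fold down. These were 8 of 9 licensing and fork genes, 2 of 4 nucleotide genes, 4 of 4 G1 to S genes, 4 of 13 mitotic genes and all 3 chromatin and tubulin genes. A 2-fold difference therefore lies inside the interval of 9 of the 13 tested mitotic genes, in at least 1 direction.

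**Figure D2:**
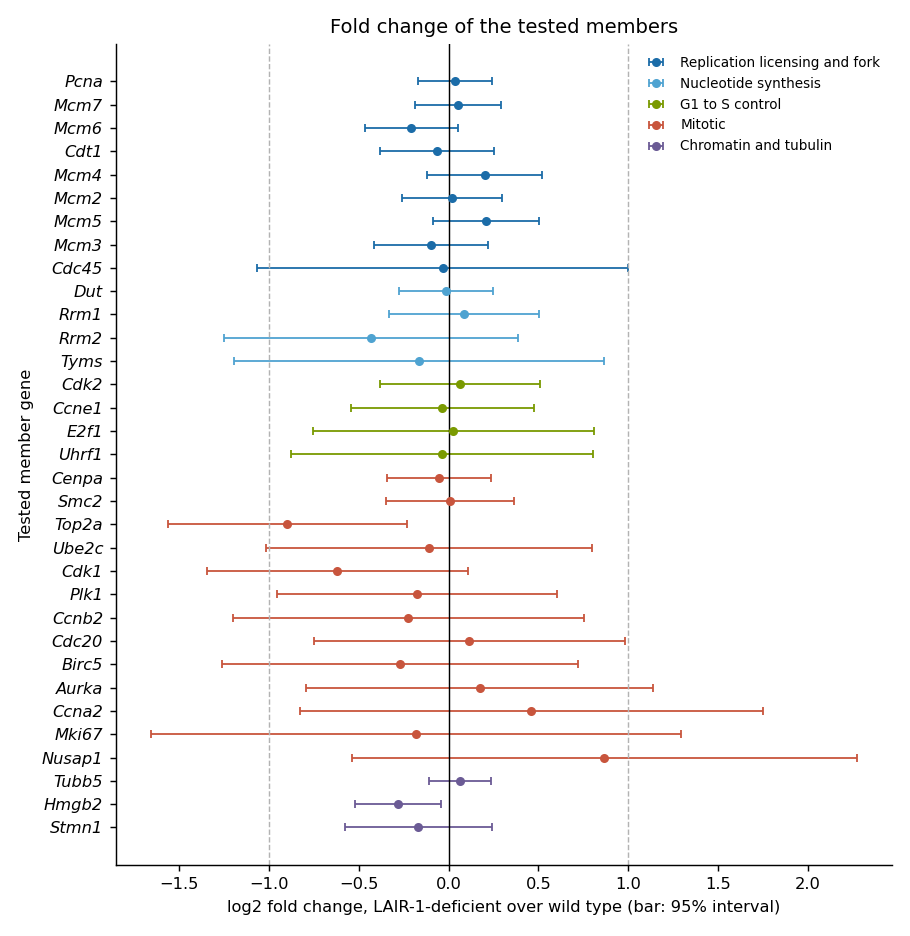
log2 fold change of LAIR-1-deficient over wild type (x axis) for the 33 tested members (y axis), coloured by role, with 95% intervals from the quasi-likelihood test and dashed lines at 2-fold. Intervals of most licensing and fork genes are narrow and include 0, while those of mitotic genes are wide; Top2a and Hmgb2 have intervals below 0 at an adjusted p of 0.9999.

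Genes of replication licensing and the fork had counts in every library, and none passed the test between genotypes. Pcna, the sliding clamp, was at 246, 236 and 271 CPM in Lair1+/+ mice 1 to 3 and at 242, 243 and 285 CPM in Lair1-/- mice 1 to 3. The groups overlapped, and the log2 fold change was 0.04 with a 95% interval of -0.17 to 0.24. Mcm2, a subunit of the helicase ring, was at 26.1, 29.0 and 31.1 CPM in Lair1+/+ and 31.1, 27.4 and 28.7 CPM in Lair1-/- libraries. Its coefficient of variation over the 6 libraries was 6.89%, where counting alone gives 6.81%, and its interval ran from -0.26 to 0.30.

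Among the other helicase subunits, Mcm6 and Mcm5 had the smallest p and moved in opposite directions without passing the test. Mcm6 was at 44.3, 43.2 and 42.3 CPM in Lair1+/+ and 38.8, 33.3 and 40.1 CPM in Lair1-/- libraries. Every Lair1-/- library was below every Lair1+/+ library, with a log2 fold change of -0.21 ± 0.12 (SE, n = 3 each) and an adjusted p of 0.9999 in edgeR's quasi-likelihood test. Mcm5 was at 24.6, 26.5 and 21.8 CPM in Lair1+/+ and 30.1, 29.0 and 25.2 CPM in Lair1-/- libraries. These groups overlapped, and the log2 fold change was 0.21 ± 0.14 (SE, n = 3 each; adjusted p 0.9999, edgeR). Mcm3, Mcm4 and Mcm7 had log2 fold changes of -0.10, 0.20 and 0.05. The subunits act as 1 ring, and their fold changes lay between -0.21 and 0.21.

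The loaders and activators of the helicase ranged from well expressed to barely detected. Cdt1, a licensing factor, was at 40.7 ± 9.09 CPM in Lair1+/+ and 38.9 ± 1.45 CPM in Lair1-/- cells (SD, n = 3 each). Its partner Cdc6 had only 6, 4 and 4 counts in Lair1+/+ and 5, 3 and 2 in Lair1-/- libraries, and was not tested. Cdc45, which activates the loaded helicase together with the GINS complex, had 7 to 14 counts per library and a log2 fold change of -0.03 with an interval of -1.06 to 1.00. Gins2, a GINS subunit, had 10, 10 and 12 counts in Lair1+/+ and 3, 5 and 6 in Lair1-/- libraries and stayed below the filter. The groups do not overlap, but 70.7% of its exon length lies under exons of Gse1 on the other strand, and the strand setting of the counting is not given in the sources used here.

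None of the nucleotide synthesis genes passed the test either. Dut, which removes dUTP, was at 47.0, 47.7 and 41.4 CPM in Lair1+/+ and 48.9, 39.7 and 46.1 CPM in Lair1-/- libraries. Rrm1, the large subunit of ribonucleotide reductase, was at 11.4, 8.75 and 13.2 CPM and at 10.7, 12.3 and 12.4 CPM. Both genes overlapped between groups, with log2 fold changes of -0.01 and 0.09. Rrm2, the small subunit that cells make in S phase, was at 12.1, 8.21 and 14.7 CPM in Lair1+/+ and 4.32, 13.7 and 8.34 CPM in Lair1-/- libraries. Lair1-/- mouse 1 was the lowest and Lair1+/+ mouse 3 the highest, and the coefficient of variation was 38.6% where counting alone gives 11.45%. The log2 fold change of Rrm2 was -0.43 (95% interval -1.25 to 0.38) and ranged from -0.87 without Lair1-/- mouse 2 to -0.11 without Lair1-/- mouse 1 when 1 library was left out. Tyms, which makes dTMP, had 5 to 21 counts per library and a log2 fold change of -0.16. Tk1, the salvage kinase for thymidine, had 6 to 13 counts and was not tested.

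Of the genes that control entry into S phase, cyclin E2 was near absent. Ccne2 had 0, 0 and 2 counts in each genotype. Its paralog Ccne1 was at 7.19, 9.74 and 8.19 CPM in Lair1+/+ and 7.21, 6.23 and 10.9 CPM in Lair1-/- libraries, and the kinase Cdk2 at 7.57, 9.85 and 9.76 CPM and 8.79, 11.4 and 8.48 CPM. The groups overlapped for both genes, with log2 fold changes of -0.03 and 0.06. E2f1, an activating E2F factor, and Uhrf1, which brings the maintenance DNA methyltransferase to replicated DNA, had 17 to 38 and 13 to 39 counts per library. Their log2 fold changes were 0.03 and -0.04, with intervals of -0.75 to 0.81 and -0.88 to 0.80.

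Mitotic genes were at low levels, apart from Cenpa and Smc2. Cenpa, the centromeric histone H3 variant, was at 30.0, 27.8 and 26.1 CPM in Lair1+/+ and 29.7, 23.5 and 27.5 CPM in Lair1-/- libraries. Smc2, a condensin subunit, was at 16.4 ± 1.80 and 16.5 ± 2.40 CPM (SD, n = 3 each). Together with Smc2, Cenpa made up most of the mitotic sum, with shares of 35.8% for Cenpa and 21.5% for Smc2. Both overlapped between genotypes, at log2 fold changes of -0.05 and 0.01.

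Mki67, which encodes the Ki-67 antigen of cycling cells, had 4, 22 and 13 counts in Lair1+/+ mice 1 to 3 and 1, 8 and 17 counts in Lair1-/- mice 1 to 3. Its levels were 0.504, 2.41 and 1.46 CPM and 0.144, 1.42 and 2.32 CPM. Mouse 1 was the lowest of both genotypes, and the groups overlapped. The log2 fold change was -0.18 with an interval of -1.66 to 1.29, and it was 0.38 without Lair1+/+ mouse 2 and 0.36 without Lair1-/- mouse 1. The direction for Mki67 thus rests on single libraries.

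Top2a, the topoisomerase that untangles sister chromatids, had the smallest unadjusted p of all members. It was at 3.91, 9.19 and 8.75 CPM in Lair1+/+ mice 1 to 3 and at 3.46, 4.09 and 4.24 CPM in Lair1-/- mice 1 to 3. Wild type mice 2 and 3 were high, while Lair1+/+ mouse 1 lay within the Lair1-/- range. The log2 fold change was -0.90 ± 0.32 (SE, n = 3 each), with an unadjusted p of 0.0110 and an adjusted p of 0.9999 in edgeR's quasi-likelihood test. Top2a (ENSMUSG00000020914.17), a protein-coding gene, spans chr11:98992943-99024189 (GRCm38, minus strand) and has 36 exons in its longest coding transcript.

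Cdk1, the mitotic kinase, was at 4.29, 4.60 and 4.60 CPM in Lair1+/+ and 1.73, 3.38 and 3.69 CPM in Lair1-/- libraries. The groups did not overlap, and Lair1-/- mouse 1 was the lowest. The log2 fold change was -0.62 ± 0.34 (SE, n = 3 each; adjusted p 0.9999, edgeR), and it ranged from -0.84 without Lair1-/- mouse 3 to -0.35 without Lair1-/- mouse 1 when 1 library was left out. Cyclin genes, whose products activate Cdk1, did not share a direction. Ccna2 had a log2 fold change of 0.46 and Ccnb2 of -0.22, and Ccnb1 had 11, 11 and 2 counts in Lair1+/+ and 15, 7 and 8 in Lair1-/- libraries and was not tested.

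The other mitotic genes were spread around 0. Ube2c and Cdc20, the ubiquitin-conjugating enzyme and the activator of the anaphase-promoting complex, had log2 fold changes of -0.11 and 0.12. The mitotic kinases Plk1 and Aurka were at -0.18 and 0.17, and Birc5, the survivin subunit of the chromosomal passenger complex, at -0.27. Nusap1, a spindle-binding protein, had the highest fold change of all tested members, 0.87 with an interval of -0.54 to 2.27, from 3, 16 and 2 counts in Lair1+/+ and 8, 11 and 10 in Lair1-/- libraries. Wild type mouse 2 lay above 2 of the 3 Lair1-/- libraries, so the groups overlapped. Kif11 (a spindle motor), Aurkb (the passenger complex kinase), Bub1 and Bub1b (both of the spindle checkpoint) had 1 to 8 counts per library and stayed below the filter.

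Hmgb2, Stmn1 and Tubb5 have no strict tie to 1 phase of the cycle and were expressed in every library. Hmgb2, a DNA-bending chromatin protein, was at 58.3, 53.3 and 55.5 CPM in Lair1+/+ and 47.4, 44.6 and 45.3 CPM in Lair1-/- libraries. Every Lair1-/- library was below every Lair1+/+ library, and the spread within each group was small. The log2 fold change of Hmgb2 was -0.28 ± 0.11 (SE, n = 3 each), with an unadjusted p of 0.0233 and an adjusted p of 0.9999 in edgeR's quasi-likelihood test. Stmn1, which destabilises microtubules, was at 13.6, 22.8 and 18.4 CPM and 13.4, 17.1 and 18.5 CPM, lowest in mouse 1 of both genotypes. Tubb5, a beta-tubulin, was at 2084, 2066 and 2068 CPM in Lair1+/+ and 2248, 2009 and 2249 CPM in Lair1-/- libraries. The latter spanned the Lair1+/+ values, with a log2 fold change of 0.07.

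**Figure D3:**
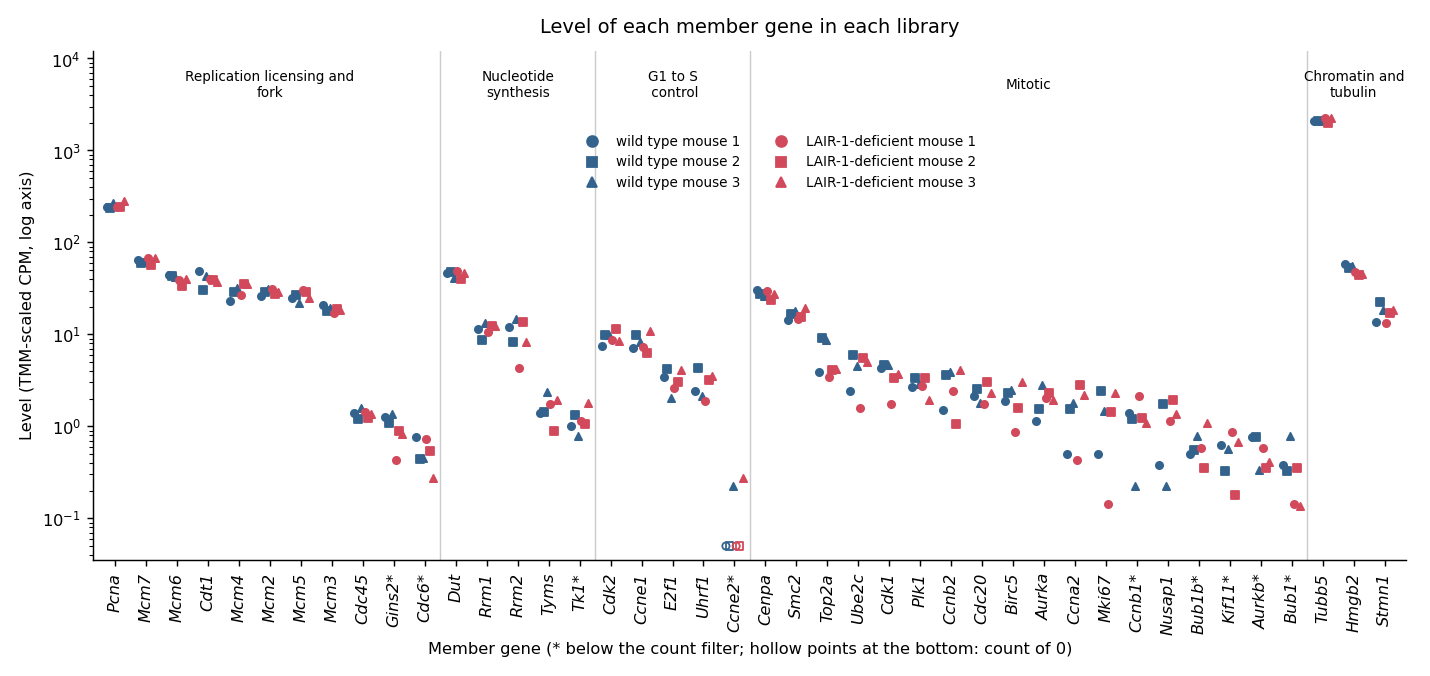
Level of each of the 42 members (x axis, grouped by role and ordered by mean level) in each of the 6 libraries (y axis, CPM scaled by TMM, log axis), with colour for genotype, marker for mouse number and hollow points for a count of 0. Tubb5 is near 2000 CPM, most licensing and fork genes lie between 17.0 and 285 CPM, and most mitotic genes lie under 10 CPM and scatter more.

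Whether reads cover whole transcripts or only their ends is not given in the sources used here. Levels per length compare genes only in the former case, and the order below depends on it. Per kilobase of annotated exons, Tubb5 was at 801 CPM, Pcna at 167 CPM, Mcm7 at 21.2 CPM, Dut at 20.9 CPM and Hmgb2 at 19.3 CPM. The library ranges of Mcm7, Dut and Hmgb2 overlapped, so these neighbours in the order do not differ beyond their spread. The median per kilobase was 6.87 CPM for the 16 replication and nucleotide genes and 0.713 CPM for the 18 mitotic genes. Cenpa, the top mitotic gene, was at 16.7 CPM per kilobase. The lowest licensing and fork gene, Cdc6, was at 0.11 CPM per kilobase, beside Bub1 at 0.104 and Kif11 at 0.112 CPM per kilobase, and Mki67 was at 0.137 CPM per kilobase. The subunits Mcm2, Mcm4, Mcm5 and Mcm6 were near each other at 8.57, 8.43, 7.57 and 9.21 CPM per kilobase, with overlapping ranges over the libraries. The other ring subunits differed more. Mcm3 was at 6.17 CPM per kilobase, with a range below those of Mcm2 and Mcm6, and Mcm7 lay above all of them at 21.2.

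As a measure of residual cycling, replication genes were compared with mitotic genes. Summed over 16 replication and nucleotide genes, the level was 573, 542 and 597 CPM in Lair1+/+ mice 1 to 3 and 564, 552 and 611 CPM in Lair1-/- mice 1 to 3. Pcna alone made up 44.3% of this sum. The sum was nearly the same in every library, at 571 ± 27.6 CPM in Lair1+/+ and 576 ± 30.9 CPM in Lair1-/- cells (SD, n = 3 each). Summed over 18 mitotic genes, it was 69.5, 86.6 and 82.1 CPM in Lair1+/+ and 67.2, 72.0 and 82.3 CPM in Lair1-/- libraries. Mouse 1 was the lowest of both genotypes, and the groups overlapped at 79.4 ± 8.85 and 73.8 ± 7.72 CPM (SD, n = 3 each). No p is given for these sums because the members were chosen with results of these data known.

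The ratio of the replication to the mitotic sum does not depend on how libraries are scaled. It was 8.25, 6.26 and 7.27 in Lair1+/+ mice 1 to 3 and 8.39, 7.67 and 7.42 in Lair1-/- mice 1 to 3. Mouse 1 was the highest in each genotype. The means were 7.26 ± 0.993 and 7.83 ± 0.505 (SD, n = 3 each), a difference within the spread of the Lair1+/+ libraries. Without Cenpa and Smc2, which dominate the mitotic sum, an alternative chosen after their values were seen, the mitotic sum was 24.97, 42.02 and 37.9 CPM in Lair1+/+ and 22.6, 33.1 and 35.5 CPM in Lair1-/- libraries. The ratio was then 23.0, 12.9 and 15.8 in Lair1+/+ and 24.9, 16.7 and 17.2 in Lair1-/- libraries. Both mouse 1 libraries stood apart more clearly on this measure, and the genotypes overlapped. Cenpa had both mouse 1 libraries highest and Smc2 both lowest, so leaving out Cenpa by itself widens this gap.

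**Figure D4:**
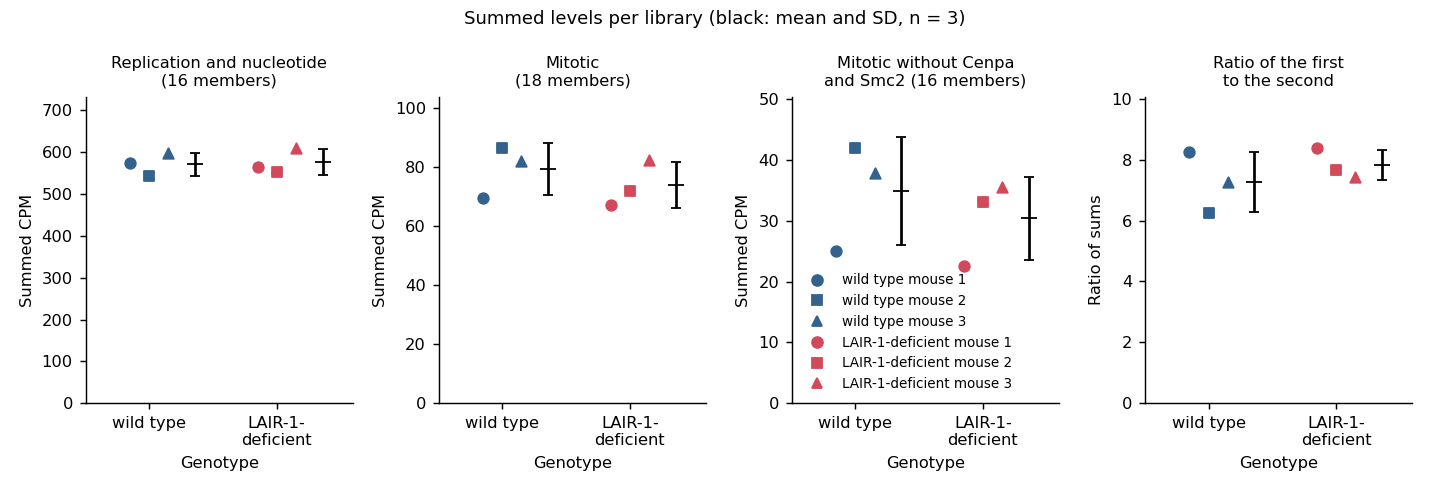
Summed CPM per library (y axes from 0) of the replication and nucleotide members, the mitotic members and the mitotic members without Cenpa and Smc2, and the ratio of the first sum to the second, by genotype (x axis), with markers for mouse number and the mean and SD of 3 libraries in black. Replication sums lie between 542 and 611 CPM, while mouse 1 of both genotypes has the lowest mitotic sums (69.5 and 67.2 CPM) and the highest ratios (8.25 and 8.39).

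Mitotic genes varied between mice more than replication genes did. The median coefficient of variation over the 6 libraries was 36.9% for the 13 tested mitotic genes, where counting alone gives a median of 21.8%. For the 13 tested replication and nucleotide genes it was 9.93%, against 6.81% from counting. The coefficient was more than 2 times that of counting for 5 mitotic genes, Mki67, Top2a, Ccna2, Ccnb2 and Ube2c. It was so for 4 replication and nucleotide genes, Pcna, Cdt1, Mcm4 and Rrm2.

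Several mitotic genes were lowest in mouse 1 of both genotypes. Ccna2, cyclin A2, had 4, 14 and 16 counts in Lair1+/+ mice 1 to 3 and 3, 16 and 16 in Lair1-/- mice 1 to 3. Ube2c was at 2.40, 6.02 and 4.49 CPM in Lair1+/+ and 1.59, 5.51 and 5.06 CPM in Lair1-/- libraries. In both genes each mouse 1 library was below all 4 others. The same held for Mki67, Top2a and Smc2, so 5 of 13 tested mitotic genes (38.5%) had both mouse 1 libraries lowest, against 12.1% of all genes tested, and 1 (Cenpa) had both highest, against 11.9%. Of the 13 tested replication and nucleotide genes, 1 (Mcm4) had both lowest and 0 had both highest. This pattern was chosen after the values were seen and carries no test.

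Relative to each gene's own mean log2 CPM, the mitotic median was -0.38, 0.26 and 0.33 in Lair1+/+ mice 1 to 3 and -0.31, 0.25 and 0.23 in Lair1-/- mice 1 to 3. The replication and nucleotide median stayed between -0.06 and 0.10 in all libraries. Ccnb2, cyclin B2, did not follow the mouse 1 pattern, at 1.51, 3.61 and 3.93 CPM in Lair1+/+ and 2.45, 1.07 and 4.10 CPM in Lair1-/- libraries, where mouse 2 was lowest. Beside these values, the summed immediate early genes were at 10559 and 12544 CPM in mouse 1 of Lair1+/+ and Lair1-/- cells and at 4200 to 4829 CPM in the other libraries. Their part in the mitotic values was not tested.

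**Figure D5:**
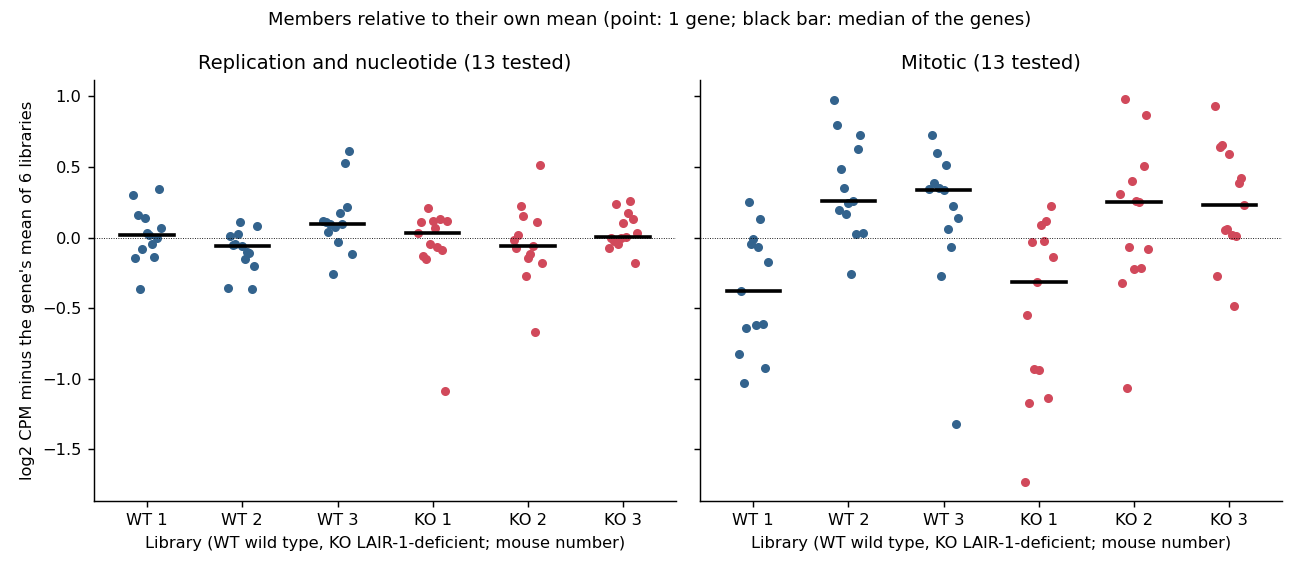
log2 CPM (prior count of 2) minus the gene's mean over the 6 libraries (y axis) for the 13 tested replication and nucleotide members (left) and the 13 tested mitotic members (right) in each library (x axis), with the median as a black bar. Mitotic medians are -0.38 and -0.31 in mouse 1 of wild type and LAIR-1-deficient cells and 0.23 to 0.33 in the other libraries, while replication medians stay near 0.

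Other genes of the same machinery gave no call. Of 41 tested further replication genes, 0 were called higher or lower, 17 leaned higher and 24 lower, and the median log2 fold change was -0.06. Dnmt1, the maintenance DNA methyltransferase and the most abundant of them, was at 73.1 ± 10.7 and 89.3 ± 18.3 CPM, and Rpa3, a subunit of the single-strand binding complex, at 6.93 ± 1.01 and 9.53 ± 0.223 CPM (SD, n = 3 each). Of 23 tested further mitotic genes, 11 leaned higher and 12 lower (median -0.03), while 22 stayed below the filter. The condensin gene Smc4 was the most abundant at 280 ± 24.7 and 250 ± 46.6 CPM. Kif23, a motor of cytokinesis, was at 32.2 ± 1.47 and 27.3 ± 3.10 CPM, and the kinetochore gene Spc24 at 2.10 ± 0.380 and 1.13 ± 0.441 CPM. Both mouse 1 libraries were lowest for 5 of these 23 genes (21.7%) and for 5 of the 41 replication genes (12.2%).

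Regulators of G1 were likewise uncalled, 12 of 22 tested genes leaning higher and 10 lower, at a median of 0.003. E2f4, the E2F factor of the repressive DREAM complex, was at 181 ± 24.4 CPM in Lair1+/+ and 212 ± 7.38 CPM in Lair1-/- cells (SD, n = 3 each), with a log2 fold change of 0.23 and an interval of 0.01 to 0.45. The inhibitor Cdkn2d was at 58.3 ± 3.00 and 50.7 ± 3.71 CPM. Cdkn1b, which encodes the cyclin-dependent kinase inhibitor p27 and was the most abundant of the list, was at 367 ± 7.30 and 389 ± 24.6 CPM. Each of these 3 genes had an adjusted p of 0.9999 in edgeR's quasi-likelihood test.

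Markers of other cells that a spleen sort could hold were present at low levels, and fewer cells of a type and less RNA per cell cannot be told apart. The 6 measured erythroid markers of 10 listed summed to 80.7 to 207 CPM in Lair1+/+ and 71.0 to 185 CPM in Lair1-/- libraries. Beta-globin and Tfrc, the transferrin receptor that T cells also make, gave nearly all of this sum, although red blood cells were lysed before the sort and CD45+ cells were taken. Beta-globin was at 34.2, 166 and 74.2 CPM in Lair1+/+ mice 1 to 3 and 33.7, 26.9 and 140 CPM in Lair1-/- mice 1 to 3. Beta-globin was lowest in Lair1-/- mouse 2, which shared the low level of both mouse 1 libraries. Relative to each gene's own mean log2 CPM, the mitotic median was 0.25 in Lair1-/- mouse 2. In mouse 1 that median was -0.38 for Lair1+/+ and -0.31 for Lair1-/- cells. Beta-globin was not called between genotypes, and its part in the mitotic values was not tested.

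The 6 of 7 B cell markers summed to 57.8 to 74.9 CPM in Lair1+/+ and 53.9 to 63.1 CPM in Lair1-/- libraries, led by Cd74. Macrophage and monocyte markers (9 of 10) summed to 7.82 to 15.2 CPM and 10.3 to 15.2 CPM, led by Cd68, and Lyz2 was at 0 in 4 libraries. Neutrophil markers (5 of 8) were at 0.378 to 7.55 and 0.137 to 6.63 CPM, led by Ngp, and plasma cell markers (5 of 5) at 2.41 to 8.70 and 3.74 to 14.1 CPM, led by Irf4. The 5 of 6 innate lymphocyte markers summed to 39.0 to 55.0 and 41.1 to 59.4 CPM, nearly all of it Eomes, which memory CD8 T cells also express. The 5 markers of CD4 and regulatory T cells were at 3.50 to 6.84 and 5.51 to 9.95 CPM, led by Ctla4, and the 11 of 13 memory and effector genes at 141 to 162 and 143 to 154 CPM, led by Eomes. None of the tested markers was called, and the sums of each list overlapped between genotypes.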

How the data were processed

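RNA of sorted naive CD8 T cells was measured in 6 libraries, 1 per mouse. The table the authors deposited holds whole-number raw counts of genes, with libraries as columns, per the file headers. The submitters' processing notes name BWA (no version) and the build mm10, and the labels' protocols name TruSeq small RNA primers. How reads were counted, on which annotation and strand, and whether molecular identifiers were used, is not given in the sources used here. Counts of overlapping or near-identical genes can therefore mix, and 11 members share exon bases with another gene.

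Columns were matched to samples by description, and the titles gave genotype and mouse number. The 4 spike-in entries, with at most 2 counts each in a library, were left out. Nothing in the labels says that same-numbered mice were paired. Genes with too few counts were removed with filterByExpr (smallest count 10), leaving 9565 of 14515 genes. Libraries were scaled by TMM, giving CPM, and the genotypes were compared in edgeR 4.0.16 (R 4.3.3) by a two-sided quasi-likelihood F test without covariates. Benjamini-Hochberg adjustment covered all genes tested, with a threshold of 0.05, and the common biological coefficient of variation was 0.135. Each standard error and 95% interval was computed from the F statistic and the fold change. Replicates are mice, 3 per group. The intervals also draw on variance estimates that the robust quasi-likelihood fit moderates over all genes tested.

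The members and all gene lists were chosen with earlier results of these data known, so no list is tested as a set and no p is given for sums. Alternatives were DESeq2 1.42.0, limma-voom (limma 3.58.1), RLE size factors, library totals, no filter, a smallest count of 30, mouse number as a block, leaving out each library, and other choices of the members summed. Members written out in full were, per role, the 2 with the smallest unadjusted p and the most abundant, plus Mki67, Top2a, Pcna and Mcm2. In the other machinery lists the 2 with the smallest p and the most abundant are named, and in marker lists the most abundant. Others are named to account for every member, or were chosen after their values were seen. Older symbols were matched through RefSeq synonyms. Gene positions and exon lengths are from GENCODE vM21 (GRCm38, the build named mm10), and promoter windows from RefSeq (GRCm38.p6). The scripts were tested on simulated data.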

Additional observations from a re-analysis of the deposited data

How the results depend on the processing

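No member was called under any of the 14 alternatives, with a smallest adjusted p over the members of 0.6034 without a filter and of 0.768 to 1.00 otherwise. The number of all genes called, 1 with TMM scaling and the default filter, was 0 under limma-voom, 0 with a smallest count of 30, 3 without a filter and 0 without the mouse 1 library of each group, which was tried after seeing the data. Leaving out 1 library gave 0 to 2 calls. The median log2 fold change of replication and nucleotide members ranged from -0.063 to 0.066, and that of mitotic members from -0.25 to 0.14, when 1 library was left out, so neither has a stable direction. The difference of the log2 ratio of replication to mitotic sums, LAIR-1-deficient minus wild type, was 0.12 and ranged from 0.01 to 0.21 when 1 library was left out. With the mean of log2 CPM in place of sums, which gives each gene the same weight, the difference was 0.016.

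Of 223 fold changes of named members under the alternatives, 205 kept their direction and side of the threshold and 18 changed sign, none of them called. All 18 followed the loss of libraries. When 1 library was left out, the log2 fold change ranged from -0.99 to 0.38 for Mki67, from -0.049 to 0.093 for Pcna, from -0.045 to 0.076 for Mcm2, from -0.063 to 0.23 for Rrm1, from -0.083 to 0.065 for Dut, from -0.073 to 0.14 for Cdk2, from -0.32 to 0.11 for Ccne1, from -0.13 to 0.031 for Cenpa and from -0.34 to 0.023 for Stmn1. Without the mouse 1 library of each group, Mcm2 was at -0.10. With a smallest count of 30, Mki67 was not tested.

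With mouse number as a block, 1 gene was called and 0 members, and the smallest adjusted p over the members was 0.8019. Deviations from the group means correlated at 0.29 between the mouse 1 libraries, 0.01 between those of mouse 2 and 0.06 between those of mouse 3. Differently numbered libraries ranged from -0.22 (Lair1+/+ mouse 3 with Lair1-/- mouse 1) to 0.18 (Lair1+/+ mouse 3 with Lair1-/- mouse 2). Among same-numbered pairs only that of mouse 1 was above 0.1, and the samples were not treated as pairs. Whether same-numbered mice were processed together is not given in the labels. Of the 18 mitotic genes, 5 stayed below the filter, and 9 of the 13 tested have intervals that reach 2-fold. Their median coefficient of variation was 36.9%, where counting alone gives 21.8%, so spread beyond counting also enters these intervals.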
